A study of Mus musculus with 2 samples.

Results

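The 10 glycolysis genes Slc2a1, Hk1, Hk2, Aldoa, Tpi1, Gapdh, Pgk1, Eno1, Pkm and Ldha were followed in innate lymphoid cells (ILCs) of the mouse gut. They were taken by name from a fixed list of glucose uptake and glycolysis genes, and all 10 of them were among the 17238 genes of the deposited count table. IL7ra+ ILCs were sorted from 2 tissues, small intestine and colon, of C57BL/6 mice that were 8 weeks old and titled as fed, with 1 single-cell 3′ library for each tissue. Each library was a pool of 8 mice, so no replicate separates the tissues and no test between them was possible. Within each library, cells were grouped by the genes they carried: at least 1 unique molecular identifier (UMI, a tag that marks 1 captured mRNA molecule) of Ccr6, Ncr1, Gata3, Klrd1 or Cd3e, or at least 2 UMIs of Il5 and Il13 together. A cell could belong to more than 1 group. The labels used here name no transgene or drug.

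Glycolysis splits glucose into pyruvate in the cytosol and yields ATP without oxygen, and lactate dehydrogenase then turns pyruvate into lactate. Activated lymphocytes are known to raise it for growth and cytokine production, and several of its genes are targets of the hypoxia factor HIF-1 and of Myc. Among ILCs, Ccr6+ and Ncr1+ cells are mostly group 3 cells, which make interleukin 22 (Il22). Gata3 is the defining factor of group 2 cells, which make Il5 and Il13, although other ILCs carry it at a low level. Klrd1 marks natural killer cells and many group 1 ILCs, and Cd3e belongs to the T cell receptor complex.

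The members cover the pathway from uptake to lactate. Slc2a1 encodes the glucose transporter GLUT1 (chr4:119108711-119137983 on mm10, plus strand). Hk1 (chr10:62268855-62379908, minus) and Hk2 (chr6:82725025-82774454, minus) encode hexokinases, which trap glucose by phosphorylation. Hk1 is the widely expressed form and Hk2 the inducible one. Aldoa (chr7:126795234-126800751, minus) encodes the aldolase that splits the sugar, and Tpi1 (chr6:124810586-124814296, minus) interconverts its products. Gapdh (chr6:125161715-125166467, minus) oxidises glyceraldehyde 3-phosphate, and Pgk1 (chrX:106187100-106203699, plus) makes ATP in the next step. Eno1 (chr4:150236721-150248879, plus) encodes enolase, Pkm (chr9:59656368-59679375, plus) encodes pyruvate kinase, and Ldha (chr7:46841475-46855627, plus) encodes the A subunit of lactate dehydrogenase.

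Because Hk2 varied against Ldha and Gapdh across the cell groups, as described later, the promoters of these 3 genes are shown. They are RefSeq windows on GRCm38.p6 of 300 bases, from 250 before to 50 after a transcript start, written 5′ to 3′ on the strand of the gene. Capitals mark ACGTG or GCGTG on either strand, the core letters of a hypoxia response element. The Hk2 window is chr6:82774405-82774704 (minus), the Gapdh window chr6:125165724-125166023 (minus) and the Ldha window chr7:46845554-46845853 (plus).
Hk2: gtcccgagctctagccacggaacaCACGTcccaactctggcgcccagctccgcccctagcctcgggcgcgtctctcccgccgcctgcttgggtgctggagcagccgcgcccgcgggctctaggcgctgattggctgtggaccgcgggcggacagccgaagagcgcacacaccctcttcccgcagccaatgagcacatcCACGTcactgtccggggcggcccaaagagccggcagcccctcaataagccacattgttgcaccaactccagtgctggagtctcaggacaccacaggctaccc
Gapdh: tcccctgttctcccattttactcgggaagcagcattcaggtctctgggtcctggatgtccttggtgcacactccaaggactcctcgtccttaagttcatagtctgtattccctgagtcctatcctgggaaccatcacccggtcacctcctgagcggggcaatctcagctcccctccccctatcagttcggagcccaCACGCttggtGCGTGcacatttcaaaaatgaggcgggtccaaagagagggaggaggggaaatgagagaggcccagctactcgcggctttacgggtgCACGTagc
Ldha: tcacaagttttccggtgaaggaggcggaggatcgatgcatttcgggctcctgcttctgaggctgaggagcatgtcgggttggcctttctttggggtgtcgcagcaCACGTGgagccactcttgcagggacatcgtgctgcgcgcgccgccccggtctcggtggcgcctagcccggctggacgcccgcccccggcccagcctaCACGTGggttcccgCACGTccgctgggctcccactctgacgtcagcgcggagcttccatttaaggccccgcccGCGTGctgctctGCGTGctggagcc
The Hk2 window held 2 matches, the Gapdh window 3 and the Ldha window 7. The palindrome CACGTG reads as ACGTG on both strands, so each of its copies in Ldha counts as 2 overlapping matches. Of the 10 members, all matched in RefSeq, 6 held at least 1 match in the window nearest their annotated start (Slc2a1, Hk2, Gapdh, Pgk1, Eno1 and Ldha). At least 1 match was present in 43.8% of all 32851 mouse promoter windows and at least 3 in 8.93%. The median share of G and C bases was 61.2% in the members' nearest windows and 52.7% over all windows. The background was not matched for it. The nearest Ldha window begins its transcript 4329 bases from the start of the gene in GENCODE, and the Gapdh window 694 bases. A match is a string of letters here and not a measured binding site.

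The small intestine library held 5490 cells with 15080081 UMIs and the colon library 7549 cells with 22332691 UMIs. The median cell had 2579 UMIs (small intestine) or 2600 UMIs (colon). The libraries shared 60 cell barcodes, against 56.2 expected by chance. Free RNA was estimated at 5.36% and 8.25% of the UMIs in cells. It was expected to supply from 2.11% (Hk2, small intestine) to 8.99% (Aldoa, colon) of each member's level over all cells of a library. Each of 6 leukocyte and ILC markers (Il7r, Id2, Rora, Thy1, Il2rg and Ptprc) was detected in both libraries, at a summed 5447 and 4908 CPM (a gene's UMIs scaled to a common total of 1e+06 UMIs). Although the sort was for ILCs, 429 and 1384 cells carried Cd3e, and 7 T cell genes summed to 6559 and 5040 CPM in them. B and plasma cell genes, mostly antibody RNA, summed to 7228 and 2471 CPM, whereas 6 myeloid genes, 5 of them detected, summed to 2.45 and 4.84 CPM. The part of these other RNAs in the results below was not tested.

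Levels are in CPM, pooled over the cells of a population. Brackets hold 95% intervals, which cover counting error only and assume no extra variation between cells or mice. A gene was called higher or lower from a ratio of at least 1.5-fold with at least 50 UMIs over both sides. For these ratios a count of 0 on 1 side was set to 3. Reads of near copies were few: Eno1b had 35 and 54 UMIs, Gapdhs 0 and 4, Aldoart1 0 and 2, Aldoart2 1 and 0, Ldhc 0 and 1, and Ldhal6b 0 and 1. The antisense gene Hk1os had 54 and 51 UMIs beside 908 and 1050 of Hk1.

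Summed over the 10 genes, glycolysis transcripts were lowest in Klrd1+ cells of both tissues, although in the small intestine their interval overlapped that of Ccr6+ cells. The sum was 3605 CPM in all small intestine cells and 3792 CPM in all colon cells. Over the 6 groups it ran from 2955 (Klrd1+) to 4023 CPM (Ncr1+) in the small intestine. In the colon it ran from 3219 (Klrd1+) to 4119 CPM (Il5/Il13+). The sum was higher in the colon in 5 of the 6 groups and higher in the small intestine in Ncr1+ cells, where it was 4023 (3966 to 4081) against 3854 CPM (3772 to 3936). The 56 nuclear respiratory chain genes summed to between 16452 and 17695 CPM in the same 12 populations.

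Of the 10 genes, Hk2 varied most. Over the 12 populations (6 groups in 2 tissues) its highest level was 15.0-fold its lowest, a wider spread than that of 99.7% of the 1779 genes with at least 50 CPM in all 12, whose median spread was 1.71-fold. Ldha spanned 2.77-fold, Slc2a1 2.62-fold, Eno1 2.26-fold, Aldoa 2.21-fold and Tpi1 2.11-fold. The narrowest were Pgk1 at 1.87-fold, Hk1 at 1.76-fold, Gapdh at 1.75-fold and Pkm at 1.45-fold. The populations share cells, because a cell with several markers counts in each, so these are descriptions and not independent points.

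**Figure D1:**
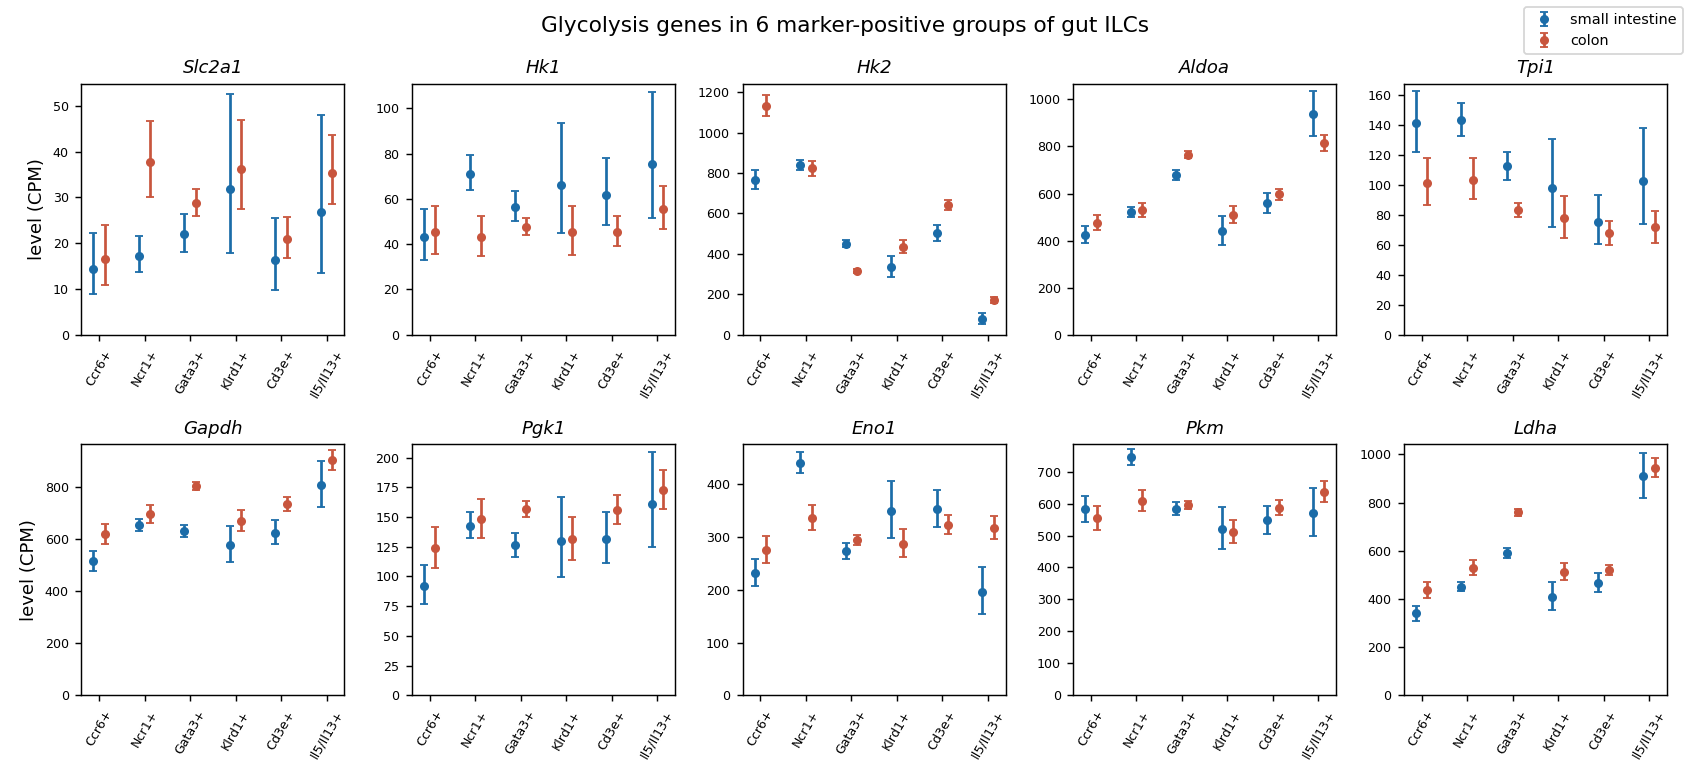
Levels of the 10 glycolysis genes (vertical axes, CPM) in 6 marker-positive groups (horizontal axes), with points for the small intestine (blue) and colon (red) and bars for 95% Poisson counting intervals. Hk2 is highest in colon Ccr6+ cells (1133 CPM) and lowest in small intestine Il5/Il13+ cells (75.6 CPM), whereas Ldha, Aldoa and Gapdh are highest in Il5/Il13+ cells.

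Slc2a1, the transporter, was sparsely detected. In the small intestine it was 14.4 CPM in Ccr6+ cells, 17.3 in Ncr1+, 21.9 in Gata3+, 31.9 in Klrd1+, 16.3 in Cd3e+ and 26.8 in Il5/Il13+ cells, from 11 to 111 UMIs. In the colon the same groups had 16.5, 37.7, 28.8, 36.3, 20.9 and 35.4 CPM, from 27 to 389 UMIs. The colon was higher in 6 of 6 groups, but the interval excluded 0 only in Ncr1+ cells, where the colon was 2.18-fold higher, and in Gata3+ cells. With other choices of cells the direction turned for Slc2a1 in Ccr6+ (log2 difference up to 0.79), Klrd1+ (0.74) and Il5/Il13+ cells (1.13), all groups with few UMIs of it.

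Hk1 was low, and more even in the colon than in the small intestine. Its levels in the small intestine, in the same order of groups, were 43.1, 71.2, 56.4, 66.0, 61.8 and 75.6 CPM. In the colon they were 45.3, 43.0, 47.8, 45.2, 45.5 and 55.7 CPM, a span of 1.29-fold, against 1.75-fold in the small intestine. Small intestine Ncr1+ cells stood above colon Ncr1+ cells by 1.66-fold (log2 0.73, interval 0.40 to 1.07). In Ccr6+ cells the difference was log2 -0.07 (-0.59 to 0.44).

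Hk2 followed the type of cell. In the small intestine it was 768 CPM in Ccr6+ cells, 839.6 in Ncr1+, 451 in Gata3+, 334 in Klrd1+, 502 in Cd3e+ and 75.6 in Il5/Il13+ cells. In the colon it was 1133, 823, 315, 436, 643 and 170.0 CPM in the same order. Ccr6+ and Ncr1+ cells were the highest in both tissues, and Il5/Il13+ cells the lowest. Ordered over both tissues, colon Ccr6+ cells stood alone at the top, followed by small intestine Ncr1+, colon Ncr1+ and small intestine Ccr6+ cells, whose intervals overlapped. Colon Cd3e+ cells came next, then small intestine Cd3e+, small intestine Gata3+ and colon Klrd1+ cells, each overlapping its neighbour. Small intestine Klrd1+ and colon Gata3+ cells overlapped below these, and Il5/Il13+ cells of the colon and the small intestine came last and apart. The lowest value rests on 31 UMIs in 109 cells.

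Aldoa and Tpi1, the aldolase and the isomerase that follow, moved apart. Aldoa was 424, 521, 679, 441, 558 and 936 CPM in small intestine Ccr6+, Ncr1+, Gata3+, Klrd1+, Cd3e+ and Il5/Il13+ cells. In the colon it was 476, 529, 766, 509, 597 and 814 CPM. Both tissues thus had the lowest level in Ccr6+ cells and the highest in Il5/Il13+ cells. Tpi1 was 141, 143, 113, 97.9, 75.6 and 102 CPM in the small intestine, and 102, 104, 83.2, 77.7, 67.8 and 71.6 CPM in the colon. It was lowest in Cd3e+ cells in both.

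Gapdh, Pgk1 and Ldha shared the pattern of Aldoa. Gapdh was 514, 651, 630.1, 577, 624 and 807 CPM in the small intestine and 618, 696, 802, 669, 733 and 901 CPM in the colon. Pgk1 was 91.9, 143, 126, 129.9, 131 and 161 CPM in the small intestine and 124, 148, 157, 131, 156 and 172 CPM in the colon. Ccr6+ cells were the lowest of the 6 groups for both genes in both tissues, and Il5/Il13+ cells the highest. Ldha was 340.4, 451, 589.6, 409, 468 and 909 CPM in the small intestine and 436, 529, 759, 514, 519 and 945 CPM in the colon. Its order put Gata3+ cells next below Il5/Il13+ cells in both tissues, with no overlap of the intervals.

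Eno1 and Pkm did not follow that order. Eno1 was 232, 441, 273, 349, 353 and 195 CPM in the small intestine, highest in Ncr1+ and lowest in Il5/Il13+ cells. In the colon it was 275, 337, 294, 288, 323 and 317 CPM, a span of 1.22-fold. Pkm was 583, 745, 584, 519, 547 and 570.5 CPM in the small intestine and 554, 608, 596, 513, 587 and 637 CPM in the colon. Small intestine Ncr1+ cells (720.2 to 769) had the highest level, with no overlap of the other 11 intervals.

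Across the 12 populations, the log2 levels of Aldoa and Ldha had a Pearson r of 0.96, those of Gapdh and Ldha 0.93, and those of Gapdh and Pgk1 0.92. Hk2 ran the other way, with r of -0.80 against Ldha, -0.79 against Aldoa and -0.63 against Gapdh. These are descriptions over populations that share cells and library depth. The ratio of Hk2 to Ldha, in Hk2 UMIs per 100 Ldha UMIs, was 226 in small intestine and 260.0 in colon Ccr6+ cells. It was 186 and 156 in Ncr1+ cells, 107 and 124 in Cd3e+ cells, 81.8 and 84.9 in Klrd1+ cells, and 76.5 and 41.5 in Gata3+ cells. In Il5/Il13+ cells it was 8.31 and 18.0.

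The first comparison set the small intestine against the colon. In all cells, Tpi1 was the only member past 1.5-fold in favour of the small intestine, at 126 (121 to 132) against 84.2 CPM (80.4 to 88.1). It lay at the threshold (log2 0.59). No member passed in favour of the colon. Of all 10811 genes measured, 19.5% were called toward the small intestine and 7.26% toward the colon. Log2 differences were 0.52 for Hk2, 0.36 for Hk1, 0.13 for Eno1 and 0.09 for Pkm, and -0.50 for Ldha, -0.47 for Slc2a1, -0.33 for Pgk1, and -0.31 each for Aldoa and Gapdh. The members' median was -0.11, against 0.21 over all genes. Scaling each library so that the median gene was equal moved the members' median to -0.32. With that scaling Tpi1 stayed higher in the small intestine but under 1.5-fold, Slc2a1 and Ldha passed 1.5-fold in the colon direction, and Eno1 and Pkm turned to the colon side.

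Since the tissues held different mixtures of cells, the same comparison was made inside each group. The share of Gata3+ cells was 29.9% (small intestine) and 55.9% (colon), that of Ncr1+ cells 29.2% and 8.81%, and that of Il5/Il13+ cells 1.99% and 9.52%. Among Ncr1+ cells 1 of 10 members passed toward the small intestine (Hk1) and 1 toward the colon (Slc2a1), against 20.3% and 6.29% of all genes. The Hk1 difference fell to log2 0.32 in cells of exactly 1 marker group, under 1.5-fold, whereas that of Slc2a1 stayed between -1.34 and -1.12 over all the alternatives. Ncr1+ cells were not the same mixture in both tissues: 5.61% of them carried Klrd1 in the small intestine and 32.6% did in the colon. Their 9 group 1 and natural killer markers summed to 1672 and 2205 CPM, and their B and plasma cell genes to 2869 and 114 CPM. In cells of exactly 1 marker group the Slc2a1 difference was -1.14. The part of Klrd1+ cells and of B and plasma cell RNA in the Hk1 and Slc2a1 differences was not tested. Among Il5/Il13+ cells 0 of 10 passed toward the small intestine and 2 toward the colon (Hk2 by 2.25-fold and Eno1 by 1.63-fold), against 11.9% and 13.4% of genes (25.3% in either direction). In Ccr6+ cells 0 of 9 measured members passed in either direction, against 18.2% and 6.03% of genes (24.2% in either direction). None of 10 passed in Gata3+ cells (16.0% and 6.41%, 22.5% in either), Klrd1+ cells (15.4% and 7.49%, 22.9% in either) or Cd3e+ cells (13.7% and 6.67%, 20.4% in either). Slc2a1, with 20 and 27 UMIs, was the member not measured in Ccr6+ cells. The shares of all genes were smaller among those with at least 200 UMIs. In Klrd1+ cells 118 (small intestine) and 78 (colon) of 1394 such genes passed, with 0 of 7 members. In Ccr6+ cells 237 and 108 of 2160 passed, with 0 of 8 members. In Cd3e+ cells 273 and 132 of 3304 did, with 0 of 9 members, and in Gata3+ cells 856 and 294 of 6821, with 0 of 10.

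The medians over members stood below those over all genes in every group. They were -0.25 against 0.17 in Ccr6+, 0.00 against 0.21 in Ncr1+, -0.14 against 0.16 in Gata3+ and -0.10 against 0.12 in Klrd1+ cells. In Cd3e+ cells they were -0.13 against 0.14, and in Il5/Il13+ cells -0.13 against 0.03. Over all the alternatives the median kept to the colon side in Ccr6+, Gata3+, Cd3e+ and Il5/Il13+ cells. It ranged from -0.21 to 0.14 in Ncr1+ and from -0.22 to 0.09 in Klrd1+ cells. In Klrd1+ cells the members' median did not always stay below that of all genes. It was 0.09 against -0.02 in cells of exactly 1 marker group (6 measured members), and 0.05 against 0.04 with the marker at 2 UMIs.

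Member by member, Gapdh and Ldha were higher in the colon in 6 of 6 groups, with log2 differences of -0.35 to -0.10 and -0.36 to -0.05, and with the interval excluding 0 in 5 groups each. The exceptions under other choices were Gapdh in Ncr1+ (up to 0.07) and Klrd1+ cells (0.10) and Ldha in Il5/Il13+ cells (0.07), which turned to the small intestine. Tpi1 was higher in the small intestine in 6 of 6 groups, by log2 0.16 to 0.52, with the interval excluding 0 in 3, and turned only in Cd3e+ cells (to -0.05) when the marker was required at 2 UMIs. Pgk1 was on the colon side in 6 of 6 groups, with the interval excluding 0 in Ccr6+ and Gata3+ cells alone. In Ncr1+ and Klrd1+ cells Pgk1 turned to the small intestine under some choices.

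Hk2 did not keep 1 direction. Small intestine cells had more of it over all cells and within Gata3+ cells (log2 0.52, interval 0.44 to 0.59). It was higher in the colon in Ccr6+ cells (log2 -0.56, -0.67 to -0.45), Klrd1+ cells (-0.38, -0.64 to -0.13), Cd3e+ cells (-0.36, -0.49 to -0.23) and Il5/Il13+ cells (-1.17, -1.74 to -0.64). In Ncr1+ cells it differed by log2 0.03 (-0.05 to 0.11). The Gata3+ difference turned to -0.12 when Gata3 was required at 2 UMIs and was 1.12 after thinning each cell to 1000 UMIs, and the Klrd1+ difference to 0.26 in cells of exactly 1 marker group. The Il5/Il13+ difference ran from -2.72, with the marker required at 4 UMIs, to -0.03 after thinning, when the markers were read again from the thinned counts and 30 small intestine cells remained. The Ccr6+ difference stayed between -0.83 and -0.56 over all the alternatives. Heat-shock genes (Hspa1a, Hspa1b, Hsph1 and Dnajb1) summed to 214 CPM in small intestine and 941 CPM in colon Ccr6+ cells, and the median depth of those cells was 2366 and 3443 UMIs. The part of these in the Hk2 difference was not tested.

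**Figure D2:**
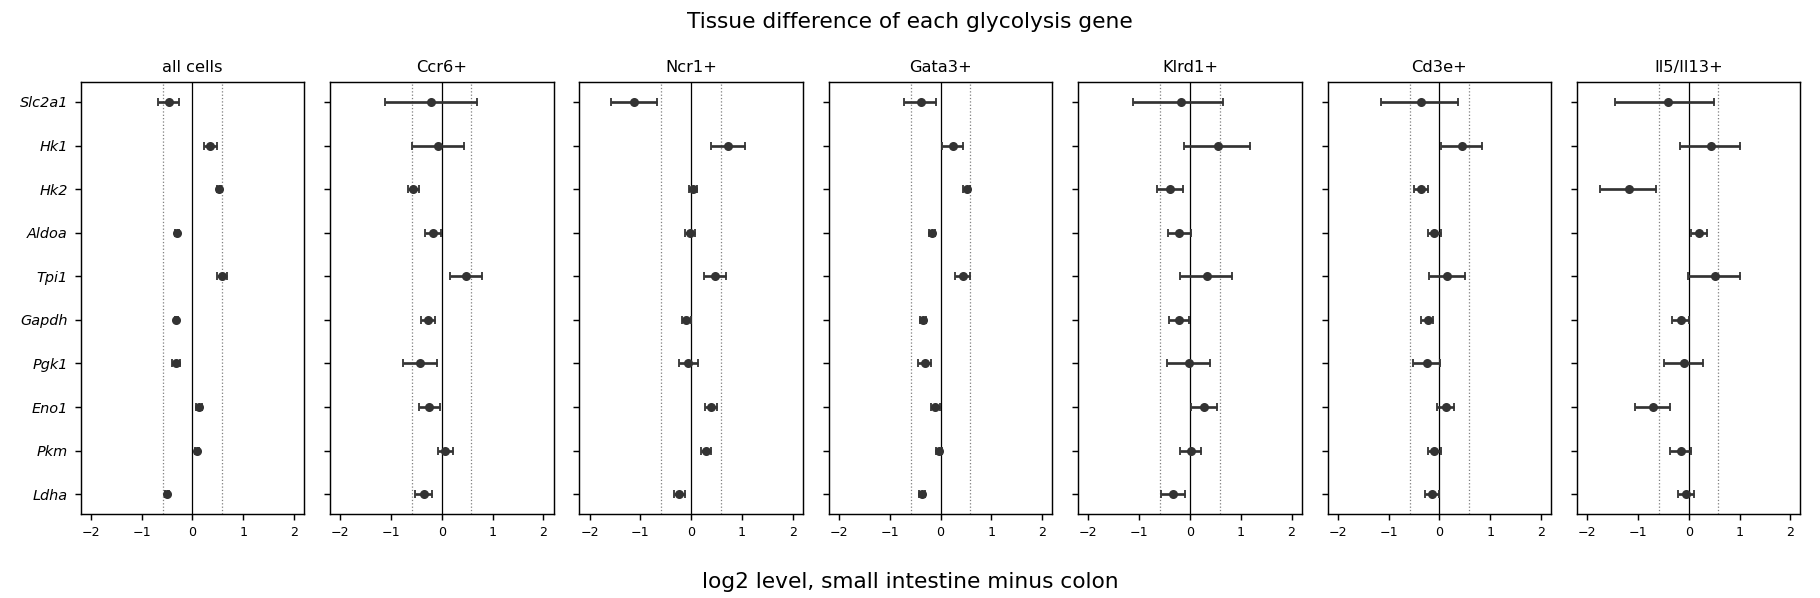
Log2 ratio of small intestine to colon (horizontal axes) for each glycolysis gene (rows) in all cells and in the 6 groups (panels), with 95% counting intervals and dotted lines at 1.5-fold. Gapdh and Ldha lie left of 0 and Tpi1 right of 0 in every panel, whereas Hk2 lies right of 0 in Gata3+ cells (0.52) and left of 0 in Il5/Il13+ cells (-1.17).

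The next comparison set marker-positive cells against the remaining cells of the same library. The remaining cells included those of no group, 34.1% of small intestine and 20.5% of colon cells. In these the 7 group 3 markers summed to 6003 and 3667 CPM, and their part in the differences was not tested. Hk2 was the member most often apart. In Ccr6+ cells the log2 difference was 0.19 for the small intestine and 1.42 for the colon, where Hk2 stood at 1133 against 423 CPM. Together with lower Slc2a1 (0.62 of the other cells' level) and Ldha (0.64), this made 1 member higher and 2 lower there, against 15.4% and 12.1% of all genes. In the small intestine 0 of 10 passed in either direction (12.6% and 11.4% of genes, 23.9% in either). In Ncr1+ cells Hk2 was higher by log2 0.47 and 0.91. There Eno1 was 1.55-fold higher in the small intestine, 1 of 10 members higher and 0 lower against 6.00% and 6.74% (12.7% in either). In the colon Hk2 (1.88-fold) and Slc2a1 (1.53-fold) were higher, 2 members higher and 0 lower against 10.0% and 10.3% (20.4% in either).

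In Gata3+ cells Hk2 was lower by log2 -0.82 (small intestine) and -1.19 (colon). It was the only member past 1.5-fold, 0 higher and 1 lower, against 4.0% of genes higher and 9.72% lower for the small intestine (13.7% in either), and 5.29% higher and 9.99% lower for the colon (15.3% in either). Ldha was higher there by log2 0.52 and 0.55, and Aldoa by 0.45 and 0.40. In Klrd1+ cells of the small intestine Slc2a1 was higher (1.74-fold, from 15 UMIs) and Hk2 lower (log2 -1.05), against 12.6% and 19.3%. The 12.6% can include genes with 0 UMIs in these few cells, because a count of 0 was set to 3. In the 31 Klrd1+ cells of exactly 1 marker group that Hk2 difference was 0.00307. In the colon 0 passed, against 9.27% and 13.8% (23.1% in either), and Hk2 differed by log2 -0.13. In Cd3e+ cells of the small intestine Tpi1 was lower by log2 -0.79, 1 of 10 against 17.7% of genes lower, and 0 were higher against 7.41% (25.1% in either). In the colon 0 passed, against 7.07% and 9.50%. Cd3e+ cells had less Hk2 than the rest in the small intestine (log2 -0.47) and more in the colon (0.56).

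In Hk2, type 2 cytokine cells stood farthest from the rest of their library among the 6 groups. Of the Il5/Il13+ cells, 89.0% (small intestine) and 90.4% (colon) also carried Gata3. Hk2 in them was 75.6 CPM against 697 CPM in the other cells of the small intestine (log2 -3.20, interval -3.76 to -2.70). In the colon it was 170.0 against 514 CPM (log2 -1.60, -1.74 to -1.46). Ldha was higher in them, by log2 0.99 (0.83 to 1.14) and 0.59 (0.52 to 0.65). In the small intestine Aldoa was also higher (1.71-fold) and Eno1 lower (log2 -0.79), so that 2 members were higher and 2 lower against 11.1% and 34.3% of genes. In the colon Ldha alone was higher, at the threshold, and Hk2 alone lower, 1 member each against 3.55% and 17.1%.

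The difference remained against Gata3+ cells with no UMI of Il5 or Il13, 1412 cells for the small intestine and 2908 for the colon. Hk2 in these was 521 and 368 CPM, so Il5/Il13+ cells were lower by log2 -2.78 (-3.35 to -2.27) and -1.12 (-1.27 to -0.97). Ldha was 909 against 546 CPM in the small intestine (log2 0.74, 0.57 to 0.89) and 945 against 698 CPM in the colon (0.44, 0.37 to 0.50). Aldoa differed by 0.55 and 0.14, Gapdh by 0.41 and 0.23, and Pgk1 by 0.41 and 0.20, all with intervals above 0. Pgk1 in the small intestine turned to -0.29 after thinning. Eno1 was lower in the small intestine (-0.57) and higher in the colon (0.16). Of 10 members 1 was higher (Ldha) and 1 lower (Hk2) in the small intestine, against 6.02% and 31.1% of genes, and 0 higher and 1 lower in the colon, against 2.79% and 12.1%. The members' median was 0.36 and 0.18, against -0.24 and -0.12 over all genes. The small intestine median turned to -0.12 after thinning, over 30 Il5/Il13+ and 803 comparison cells and 8 measured members.

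The comparison cells were not all group 2 cells. The 7 group 3 markers summed to 314 CPM in small intestine and 450.2 CPM in colon Il5/Il13+ cells, against 2895 and 1151 CPM in all Gata3+ cells. Il22 itself was 283 and 416 CPM in Il5/Il13+ cells, and 2832 and 1289 CPM in the Gata3+ cells without Il5 or Il13. The part of group 3 cells in the Hk2 difference was not separated in this comparison. Il5/Il13+ cells were deeper, with a median of 3448 and 2991 UMIs, against 2812 and 2696 in the comparison cells.

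**Figure D3:**
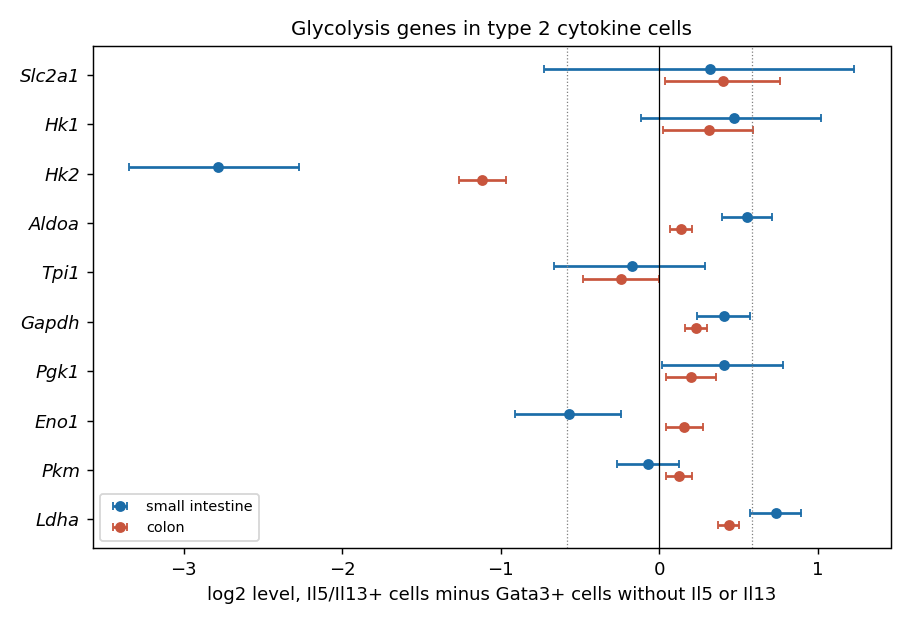
Log2 ratio of Il5/Il13+ cells to Gata3+ cells without Il5 or Il13 (horizontal axis) for each glycolysis gene (rows), in the small intestine (blue) and colon (red), with 95% counting intervals and dotted lines at 1.5-fold. Hk2 is lower in both tissues (-2.78 and -1.12), and Ldha (0.74 and 0.44), Aldoa, Gapdh and Pgk1 are higher.

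Cells were then divided by their own Il22 count, since Hk2 was highest in the groups with most Il22. In Ccr6+ cells Hk2 was 495 CPM with 0 Il22 UMIs, 671 with 1 to 9 and 915 with 10 or more in the small intestine. In the colon it was 430.4, 838 and 1320.3 CPM. In Ncr1+ cells it was 682, 766 and 1049 CPM in the small intestine and 523, 835 and 1305 CPM in the colon. Hk2 thus stood higher with more Il22 in each group and tissue. Ldha did not follow, at 374, 321 and 346 CPM in small intestine Ccr6+ cells and 556, 519 and 495 CPM in colon Ncr1+ cells.

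Hk2 also stood higher with more Il22 in groups not defined by group 3 markers, an extension added after the first results were seen. These groups still carried group 3 markers. The 7 markers, Il22 among them, summed to 2895 (small intestine) and 1151 CPM (colon) in Gata3+ cells. They summed to 2048 and 1879 CPM in Klrd1+ cells and 1645 and 1380 CPM in Cd3e+ cells. The part of group 3 cells in the Hk2 differences by Il22 was not tested. In Gata3+ cells Hk2 was 233, 369.7 and 1004 CPM over the 3 classes in the small intestine and 163, 268 and 1234 CPM in the colon. In Klrd1+ cells it was 169, 368 and 762 CPM, and 182, 434 and 1237 CPM. In Cd3e+ cells it was 389.8, 490.5 and 917 CPM, and 465, 552 and 1442 CPM. The 3 classes did not overlap in their intervals in these groups, except the lower pair in small intestine Cd3e+ cells.

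From 0 to 10 or more Il22 UMIs, the log2 difference of Hk2 was 0.89 (0.57 to 1.22) in small intestine and 1.62 (1.25 to 2.01) in colon Ccr6+ cells. It was 0.62 (0.49 to 0.76) and 1.32 (1.16 to 1.48) in Ncr1+ cells, and 2.11 (1.93 to 2.29) and 2.92 (2.82 to 3.02) in Gata3+ cells. In Klrd1+ cells it was 2.17 (1.47 to 2.88) and 2.76 (2.48 to 3.05), and in Cd3e+ cells 1.23 (0.89 to 1.57) and 1.63 (1.51 to 1.76). In each of these 10 contrasts Hk2 was the only measured member at least 1.5-fold higher, out of 6 to 10 members with at least 50 UMIs. The share of all genes higher by that rule ran from 5.50% in small intestine Ncr1+ cells to 15.7% in small intestine Gata3+ cells. Between 0 and 3 members were lower, among them Ldha and Aldoa in Gata3+ cells of both tissues (Ldha by log2 -0.65 and -0.77, Aldoa by -0.73 and -0.69), against 4.64% to 17.3% of genes.

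In cells of exactly 1 marker group the Hk2 difference was 0.41 in small intestine Ncr1+ cells, no longer 1.5-fold. It was larger in Gata3+ cells, at 2.78 and 3.19. Cells with 10 or more Il22 UMIs were deeper in every group except small intestine Gata3+ cells, for example 5366 against 2682 UMIs at the median in colon Gata3+ cells. With every cell thinned to 1000 UMIs and the same groups and classes, the difference ran from 0.70 in small intestine Ncr1+ to 3.22 in colon Klrd1+ cells.

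**Figure D4:**
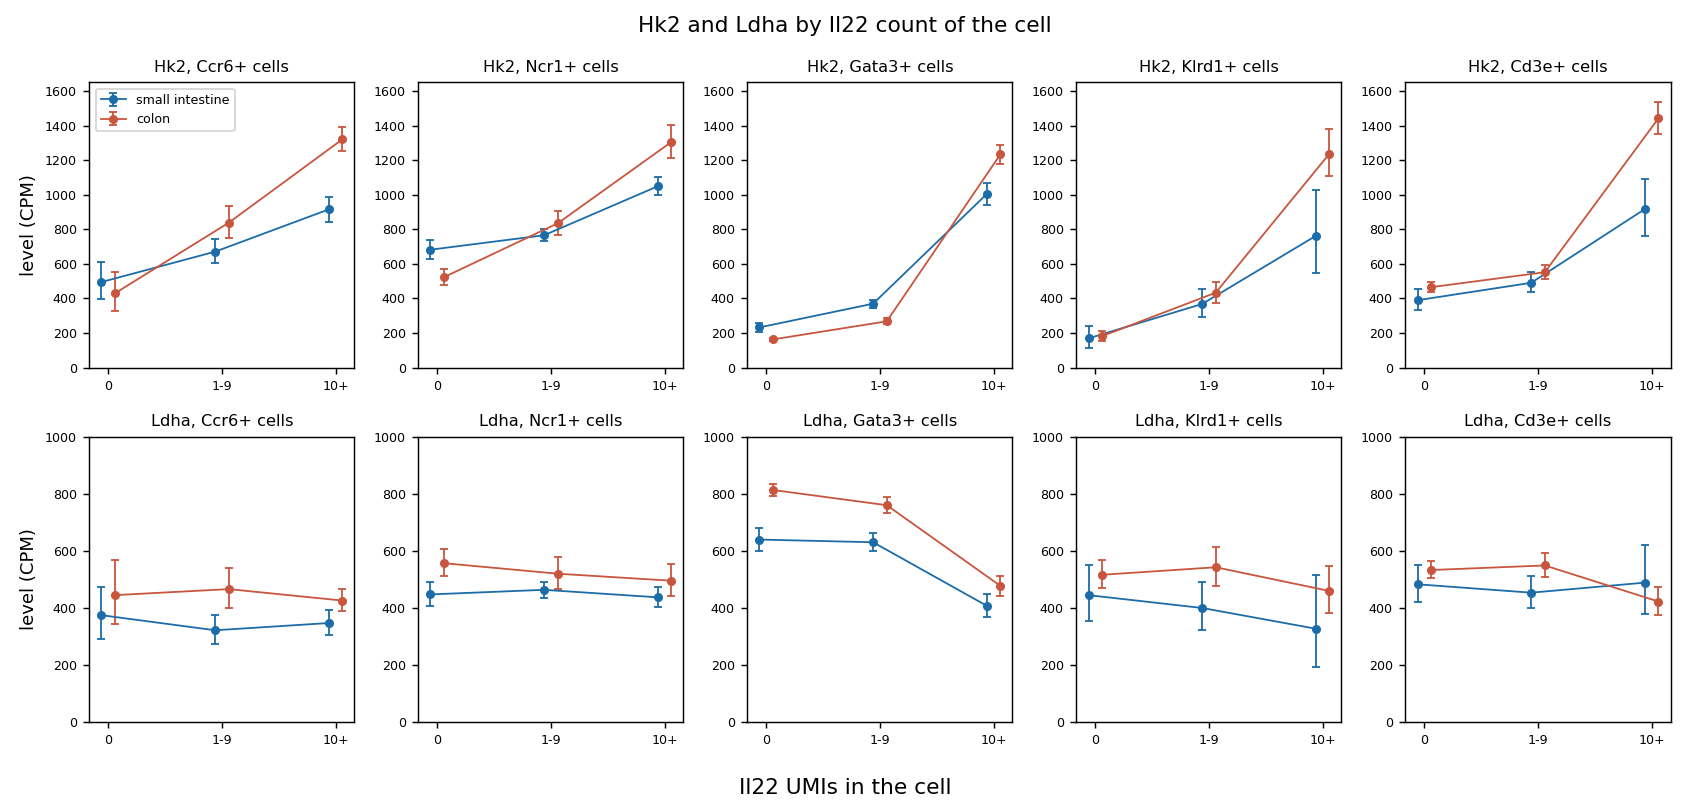
Levels of Hk2 (upper row) and Ldha (lower row) in CPM (vertical axes) by the number of Il22 UMIs in the cell (horizontal axes: 0, 1 to 9, 10 or more), in 5 marker-positive groups, small intestine in blue and colon in red, with 95% Poisson counting intervals. Hk2 is higher in each class with more Il22 in all 5 groups, and Ldha is lowest at 10 or more in Gata3+ cells of both tissues.

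Counted per cell, the same differences appeared as shares of cells with a UMI after thinning to 1000 UMIs. Hk2 was seen in 42.9% (38.7 to 47.2) of small intestine and 57.4% (52.1 to 62.6) of colon Ccr6+ cells. It was seen in 50.1% and 42.3% of Ncr1+ cells, 26.7% and 15.8% of Gata3+ cells, and 34.7% and 35.3% of Cd3e+ cells. In Il5/Il13+ cells the share was 2.75% (3 of 109 cells, 0.571 to 7.83) and 9.46% (68 of 719, 7.42 to 11.8), and unthinned 12.8% and 25.5%. Free RNA was expected to supply 14.3 and 22.3 CPM of Hk2 to a cell, beside the 75.6 and 170.0 CPM of Il5/Il13+ cells. No cell type in these libraries is known to lack Hk2, and the part of free RNA in the Hk2 of these cells was not tested. Ldha was seen in 49.5% and 60.5% of Il5/Il13+ cells and in 27.0% and 30.8% of Ccr6+ cells. Hk2 was unevenly held: the tenth of colon Gata3+ cells richest in it carried 72.1% of its UMIs, with up to 57 UMIs in 1 cell, against 29.5% for Ldha.

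The other genes of glucose metabolism were read from lists. Of 22 other glycolysis genes 16 were measured in all cells, with 2 called toward the small intestine and 3 toward the colon, where 19.5% and 7.26% of all genes were. The list's median was 0.28, against 0.21 over all genes. The pair higher in the small intestine were Pfkp, the platelet form of phosphofructokinase (126 against 67.9 CPM), and Ldhb, the B subunit of lactate dehydrogenase (60.1 against 30.2 CPM). Higher in the colon were the monocarboxylate transporters Slc16a3 (3.85 against 10.0 CPM) and Slc16a1 (2.45 against 6.27 CPM), and Aldoc, the brain aldolase (2.79 against 5.06 CPM). Pfkp was higher in the small intestine in 5 of the 6 groups, most in Ncr1+ cells (161 against 55.1 CPM), and lower by log2 -0.24 in Il5/Il13+ cells. Ldhb was likewise higher in 5 of 6, the exception being Klrd1+ cells (-0.32).

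Txnip, which encodes a protein that restrains glucose uptake, was lower in the small intestine in 6 of 6 groups, by log2 -0.94 in Klrd1+ cells to -2.75 in Il5/Il13+ cells. The last value rests on few UMIs: the 8 listed regulators together had 10 in small intestine Il5/Il13+ cells. In all cells Txnip was 47.1 against 129.6 CPM. The other regulators called were Pfkfb2 (2.06 against 1.03 CPM) and Tigar (2.79 against 1.61 CPM), so that of 5 measured 2 were higher and 1 lower in the small intestine. Over all genes 19.5% were higher and 7.26% lower there (26.8% in either direction), and the same shares stand beside the next lists. Of 9 measured genes of pyruvate entry into mitochondria 0 were called in either direction, and of 56 respiratory chain genes 1 was, Ndufs7 (171 against 112 CPM). Of 7 pentose phosphate genes G6pdx, the first enzyme of that pathway, was higher in the small intestine (21.9 against 10.9 CPM).

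Among 20 genes of the hypoxia response, 4 passed toward the small intestine and 4 toward the colon, with a median of -0.04. Over all genes the shares were 19.5% and 7.26% and the median 0.21. Epas1, which encodes HIF-2α, was higher in the small intestine in 6 of 6 groups, by log2 1.21 to 1.93. In Il5/Il13+ cells it was 280 (small intestine) against 96.3 CPM. Ddit4, a stress-induced inhibitor of mTOR, was lower in 6 of 6, by log2 -0.48 to -2.56, and Vegfa, the vascular growth factor, by -0.21 to -2.47. The smallest Vegfa difference was in Gata3+ cells, at 26.4 (small intestine) against 30.5 CPM (colon). No intervals are given for these group values, so 6 of 6 describes direction only. In the small intestine Vegfa was 12.8 CPM in Klrd1+ and 9.75 CPM in Il5/Il13+ cells. These populations held 469706 and 410186 UMIs of all genes, so both values rest on few UMIs. Of 11 growth control genes 0 passed toward the small intestine and 3 toward the colon, against the same 19.5% and 7.26%. These were Slc7a5, an amino acid transporter (4.97 against 14.8 CPM), Myc (15.3 against 31.4 CPM) and Mycn (6.56 against 11.7 CPM). Myc was not uniform, with 3.59 against 14.1 CPM in Ccr6+ cells and 63.9 against 42.0 CPM in Klrd1+ cells.

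**Figure D5:**
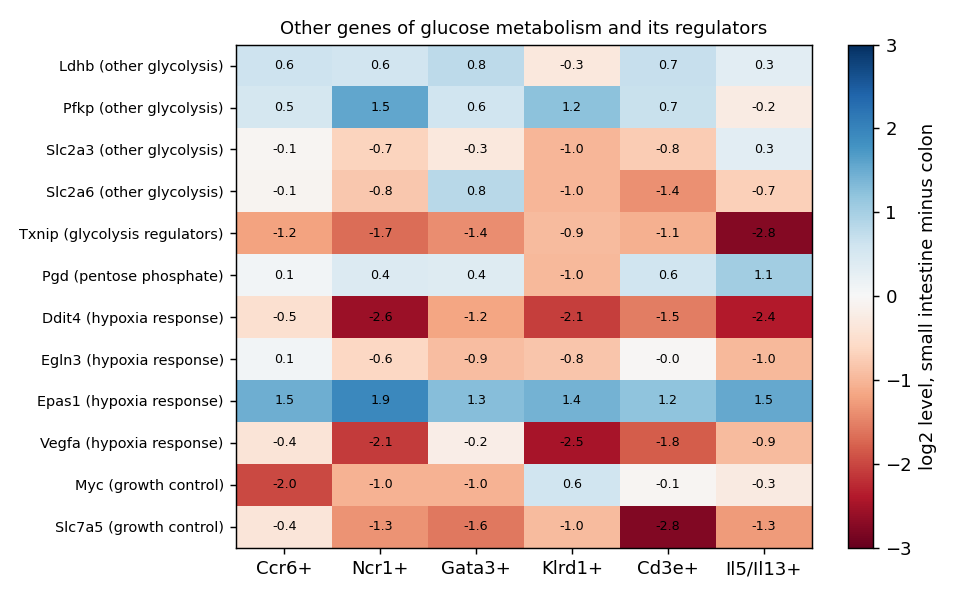
Log2 ratio of small intestine to colon (colour and number in each cell of the grid) for 12 other genes, chosen after their values were seen, of glucose metabolism and its regulators (rows, list in brackets) in the 6 groups (columns). Epas1 is higher in the small intestine and Txnip, Ddit4, Vegfa and Slc7a5 lower in each of the 6 groups. No minimum of UMIs was set for a single value of the grid, and some rest on few UMIs. Slc7a5, for example, was between 2.58 (Cd3e+) and 9.75 CPM (Il5/Il13+) in the small intestine.

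The same lists were read in type 2 cytokine cells. Against Gata3+ cells without Il5 or Il13 in the small intestine, 1 of 11 measured other glycolysis genes was higher and 6 were lower, where 6.02% of all genes were higher and 31.1% lower. The list's median was -0.74, that of the 7 pentose phosphate genes 0.32 and that of 13 measured hypoxia genes 0.28, beside -0.24 over all genes. No difference between lists was tested. Among the lower were Pfkp (51.2 against 99.3 CPM), Ldhb (21.9 against 49.0 CPM) and Slc2a6, a glucose transporter with 1 UMI in Il5/Il13+ cells (log2 -3.11, interval -8.43 to -0.59). Tkt, the transketolase of the pentose phosphate pathway, was higher there (234 against 128 CPM, log2 0.87), as was Myc (41.4 against 14.4 CPM). In the colon 2 of 15 other glycolysis genes were higher (Slc16a3 and Slc16a1) and 3 lower (Slc2a6, Hk3 and Ldhb), where 2.79% of all genes were higher and 12.1% lower. Egln3, a HIF prolyl hydroxylase, was 135 against 65.6 CPM in the colon, and Myc 50.2 against 31.2 CPM. Pfkp rests on 21 UMIs and Ldhb on 9 in small intestine Il5/Il13+ cells, which limits their precision.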

How the data were processed

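Single-cell 3′ libraries of sorted ILCs, 1 for the small intestine and 1 for the colon, were analysed from the deposited table of UMI counts per gene and cell. The authors made the counts with Cell Ranger 3.0.2 on mm10, per the submitters' processing notes. How cells and genes were chosen is not given in the sources used here. The table's values were checked against the 2 deposited count matrices (31053 genes, 737280 barcodes): 0 values differed, and 100% of the cells' UMIs were in the table. Every column of the table belonged to 1 of the 2 libraries.

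UMIs were summed over the cells of each population and divided by the population's total. Levels have exact Poisson intervals, ratios of 2 levels conditional binomial intervals, and shares exact Clopper-Pearson intervals, at 95%. These cover counting error only, and UMIs in the same cell or mouse are not independent, so the true errors are larger. With 1 library per tissue no p-value was computed. A gene was called at 1.5-fold or more with at least 50 UMIs over both sides, over all genes of the table. A count of 0 on 1 side was set to 3. In a small population set against a large one, this can call an undetected gene higher. The ratios and their intervals were tested on simulated Poisson counts with known folds. Those counts held no variation between cells or mice, so the test covers counting error only. The other steps were not simulated. Free RNA was estimated from barcodes of 10 to 50 UMIs with 3 antibody genes. Doublets stayed in: Scrublet's own threshold marked 0 and 1 cells, so an alternative left out the 241 and 456 cells with the highest doublet scores, at 0.8% per 1000 cells.

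The 10 genes and all lists were chosen with earlier results of these data known. All members were named. Of each other list the rule took at most the 3 largest calls in each direction per population, ordered by whichever interval bound lay closest to 1, and of the pattern search the 5 genes with the highest and the 5 with the lowest r. Alternatives changed the scaling, the markers, the depth, the doublets and the minimum UMIs, and those of the Il22 contrast were chosen after seeing the data. Gene positions are from GENCODE vM21 and promoters from RefSeq. Python 3.11.15, numpy 2.4.6, scipy 1.17.1, pandas 2.3.3, scanpy 1.11.5 and matplotlib 3.10.9 were used.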

Additional observations from a re-analysis of the deposited data

Results flagged for a closer look

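Several members had effects of opposite direction in populations compared in the same way, with counting intervals on opposite sides of 0. None of these differences was tested, since each tissue had 1 library, and the intervals do not cover variation between mice. The log2 ratio of small intestine to colon for Hk2 was 0.52 in Gata3+ cells, against -0.56 in Ccr6+, -0.38 in Klrd1+, -0.36 in Cd3e+ and -1.17 in Il5/Il13+ cells. The same ratio for Aldoa was 0.20 in Il5/Il13+ cells, against -0.16 in Ccr6+ and -0.17 in Gata3+ cells. For Eno1 it was 0.39 in Ncr1+ and 0.28 in Klrd1+ cells, against -0.25 in Ccr6+, -0.11 in Gata3+ and -0.70 in Il5/Il13+ cells. Some of these ratios changed sign under other choices. They were Eno1 in Klrd1+ cells (down to -0.41), Aldoa in Gata3+ cells (up to 0.02), and Hk2 in Gata3+ (down to -0.12) and Klrd1+ cells (up to 0.26).

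Against the remaining cells of the same library, Hk2 in Cd3e+ cells differed by log2 -0.47 in the small intestine and by 0.56 in the colon. Gapdh in Ncr1+ cells differed by 0.15 and by -0.13.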

How the results depend on the processing

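The median over the members stayed, in all 175 alternative values, within a range set by the spread between members, although 10 values crossed 0. That range does not measure counting error and is wide. Over all cells it was -0.47 to 0.52 around a median of -0.11, so staying inside it is a weak check. Of the log2 values of single members, 1443 moved by less than their error, 306 moved by more, and 1 that was past 1.5-fold changed sign. This was Hk2 in Klrd1+ against other small intestine cells, at 0.00307 in cells of exactly 1 marker group. Of the 1443, 210 could not move, because the filter of at most 10% mitochondrial UMIs and at least 300 genes removed no cell. That filter could not move the medians or the counts past 1.5-fold either. A minimum of 20 or 200 UMIs leaves a ratio unchanged, which fixed 70 more values each. Counting also values under 1.5-fold, 104 of the 1750 alternative values lay on the other side of 0, for 63 of 210 comparisons of a member. Counts past 1.5-fold stayed within 1.5 times in 63 of 77 alternatives in favour of the small intestine and in 63 of 77 in favour of the colon. The exceptions follow, with the cause not tested. Over all cells the small intestine count was 0 with a median-ratio size factor, without doublets, and with no ribosomal or mitochondrial genes in the total, and 2 as a mean over cells and after thinning. The colon count was 2 with the size factor and with no ribosomal or mitochondrial genes, and 1 after thinning. In Ccr6+ cells the colon count was 2 with the size factor, in cells of exactly 1 group and after thinning. It was 1 as a mean over cells, with free RNA subtracted, without doublets, and with no ribosomal or mitochondrial genes, and the small intestine count was 1 with the marker at 2 UMIs. In Ncr1+ cells the small intestine count was 0 with the size factor, in cells of exactly 1 group and after thinning, and the colon count was 0 after thinning and with at least 200 UMIs. The small intestine count was 1 in Gata3+ cells as a mean over cells, after thinning and without doublets, 1 in Klrd1+ cells without doublets, and 1 in Il5/Il13+ cells with the stricter marker. The colon count was 1 in Cd3e+ cells with the marker at 2 UMIs and 1 in Il5/Il13+ cells after thinning.

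The log2 difference of Hk2 between 10 or more and 0 Il22 UMIs, in cells of exactly 1 group, was 1.21 in colon Ccr6+, 0.41 in small intestine Ncr1+, 0.83 in colon Ncr1+, 2.78 in small intestine Gata3+, 3.19 in colon Gata3+ and 1.30 in colon Cd3e+ cells. Without doublets it was 2.31 in small intestine Gata3+, 3.20 in colon Gata3+ and 1.64 in small intestine Cd3e+ cells. After thinning it was 3.22 in colon Klrd1+ cells. Small intestine Klrd1+ cells of exactly 1 group gave no value, having fewer than 10 cells in a class. No paired analysis was possible because each tissue had 1 library. Depth limits Slc2a1 most, with 11 to 27 UMIs in several groups.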

Other observations

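Genes whose log2 levels followed the members over the 12 populations were looked for among 1771 genes with at least 50 CPM in each. The populations share cells and depth, and these correlations are descriptions. The sum of the members ran most closely with Ndufa4 (r = 0.90), a respiratory chain subunit, Cish (0.84), a cytokine signalling inhibitor, Cxcl2 (0.80), Uqcr11 (0.79) and Ybx1 (0.79). It ran most against March5 (-0.89), Ndufa6 (-0.89), Bcl2 (-0.85), Ggnbp2 (-0.79) and Zcchc11 (-0.79). Searches for Hk2 and Ldha were added after seeing the data. Hk2 ran most closely with Ckb (0.95), the brain creatine kinase, and Tspo (0.94), and most against Fbl (-0.92). Ldha ran most closely with Elovl5 (0.97), a fatty acid elongase, and Zc3hav1 (0.95), and most against Herpud1 (-0.97) and Map1lc3b (-0.97).

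Cells in division had a summed member level close to that of other cells, at 3492 against 3608 CPM in the small intestine and 3853 against 3791 CPM in the colon. By depth of the cell, Hk2 in the small intestine was 733 CPM under 1500 UMIs and 345 CPM at 6000 or more, and in the colon 508 and 900.3 CPM.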
